A study of Mus musculus with 16 samples.

Results

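Genes of peroxisomal oxidation and of peroxisome biogenesis were followed in whole liver of male C57BL/6J mice on 4 diets, with and without acute activation of the nuclear receptor PPARα. The 36 genes were taken by name. A gene was measured by the transcript cluster that the platform annotation assigns to it and to no other gene, and where a gene had more than 1 such cluster the brightest on average was kept. All 36 were found among the 18820 genes measured in this way, and all 36 passed the filter that left 14275 genes for testing (intensity above 20, log2 4.32, on at least 5 arrays). They comprise 20 matrix enzymes, 3 transporters and 13 Pex genes.

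Each of 16 mice gave 1 array of log2 intensities, so a difference of 1 is a change of 2-fold. Wy mice (8) had received Wy-14,643, a PPARα agonist, at 160 mg/kg by gavage, and mock mice (8) carboxymethyl cellulose alone. Both were fasted for 4 h before the gavage and for the 6 h from gavage to death, so all levels are those of fasted liver. The diets ran from 9 weeks to 12 months of age, with 4 mice on each. INT alternated weekly between the medium-fat diet ad libitum and 40% calorie restriction, and CR was a continuous restriction set at 30%. MF supplied 25% of energy from fat (medium fat), and C was the control diet AIN-93W. The energy intake that the study measured in its CR group was below the level set. The MF and C diets were eaten ad libitum, and CR mice received portions each day at a fixed hour. Time since the last meal may therefore have differed between CR mice and the others beyond the shared fast. INT mice were killed in their ad libitum medium-fat week. Within a diet, Wy and mock mice had been matched by body weight, which gave a heavy (high) and a light (low) pair on each diet, 8 pairs in all. Mice are therefore the replicates, with 2 behind each combination of diet and treatment.

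Peroxisomes shorten very-long-chain, branched-chain and dicarboxylic fatty acids and the side chains of bile acid precursors, passing the products on to mitochondria, and they detoxify hydrogen peroxide and glyoxylate. They hold no DNA, so every enzyme is imported from the cytosol by Pex proteins, which also insert the membrane proteins and drive growth and division. In rodent liver PPARα agonists are known as peroxisome proliferators, and several genes of the straight-chain oxidation cycle are classical targets of the receptor.

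Over the tested genes the 16 arrays had medians of 7.07 to 7.21 and correlated with each other at 0.968 to 0.995. The hepatocyte markers Alb, Ttr, Apoa1, Cps1 and Tat were high on all 16 arrays (Alb 13.35 to 13.50), whereas the adipocyte marker Adipoq, the kidney markers Kap and Cubn and the acinar markers Ctrb1 and Cel were under the filter on all 16. Other markers of these types were above it on all 16, at up to 5.22: the adipocyte markers Plin1 and Retn, the kidney marker Slc22a6 and the acinar marker Cpa1. The kidney markers Lrp2 and Slc34a1 were above it on 15 and 14 arrays, and the adipocyte marker Lep on 2. The array codes in the labels start with a different number on 2 arrays, those of the Wy and mock INT mice of high body weight. Whole liver was measured, so that fewer cells of a type and less RNA per cell cannot be told apart in any result below.

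The first comparison asked which of these genes responded within 6 h to PPARα activation. With Wy, 15 of the 36 members rose and 6 fell, where over all genes tested 28.3% were called, 12.3% higher and 16% lower (limma with the pair as a block, Benjamini-Hochberg adjusted p under 0.05). The risers were led by the straight-chain cycle, with Ehhadh 2.76-fold, Acaa1b 2.30-fold and Acaa1a 2.04-fold higher, followed by Pex11a at 1.84-fold and Pex14 at 1.75-fold. By class, 7 of 20 matrix enzymes rose and 3 fell, 1 of 3 transporters rose and 1 fell, and 7 of 13 Pex genes rose and 2 fell. The median log2 change was 0.34 over the Pex genes, 0.11 over the matrix enzymes, -0.06 over the transporters and -0.01 over all genes tested. Centring each array on its median moved the split to 17 members higher and 3 lower, and the share of all called genes that were higher to 53.9%, against 43.5% without it.

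**Figure D1:**
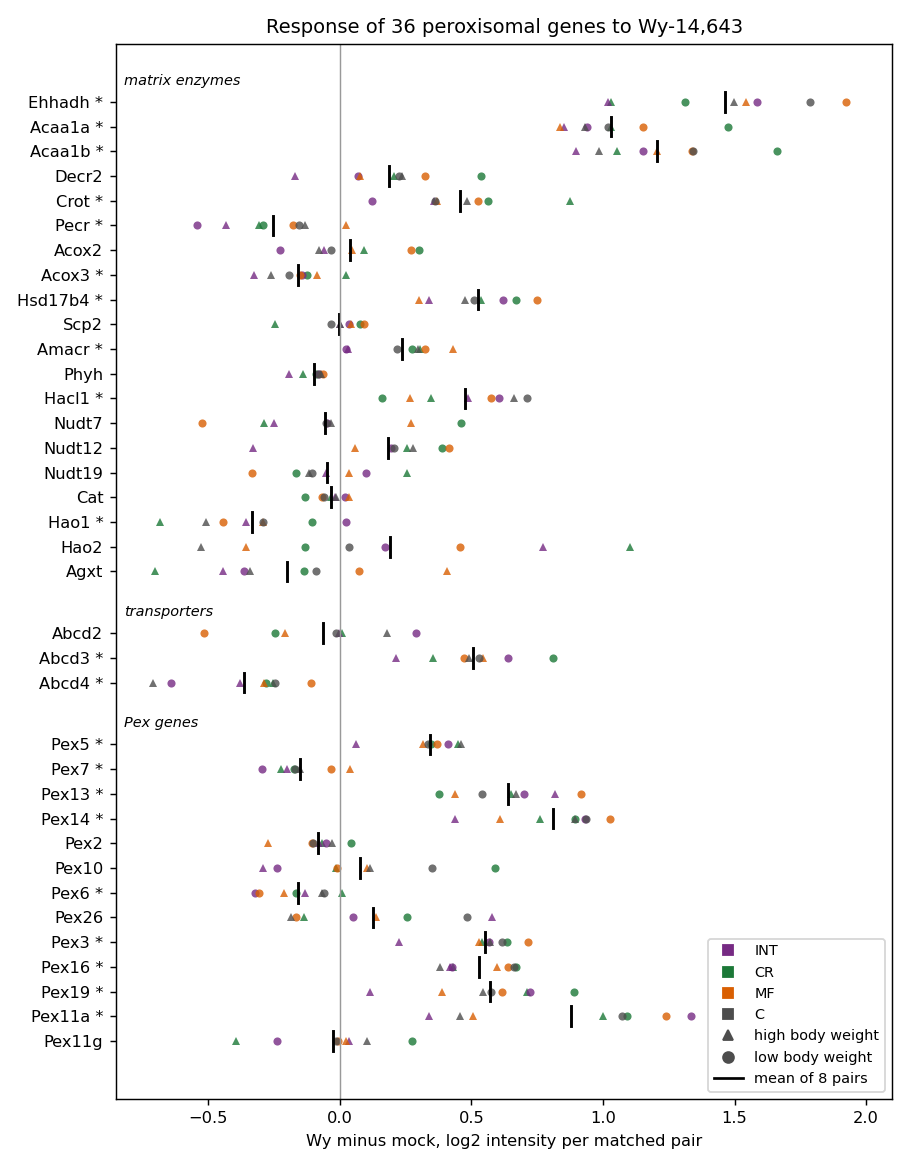
Wy minus mock difference in log2 intensity (x axis) of the 36 members (y axis) in each of the 8 matched pairs, coloured by diet and shaped by body weight class, with the mean of the 8 pairs as a black bar and an asterisk at members called at an adjusted p under 0.05. All 8 pairs lie above 0 for Ehhadh, Acaa1a, Acaa1b, Pex14 and the other 11 risers, while Scp2 and Cat centre near 0.

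In the straight-chain cycle, Ehhadh carries the hydratase and dehydrogenase steps in 1 protein. On the log2 scale Ehhadh stood at 13.02, 13.14 and 13.22 in Wy mice, against 11.22, 11.63 and 12.19 in mock mice (lowest, median and highest of 8). The groups did not overlap, and every Wy mouse lay within 0.20 of every other, where the mock mice ran over 0.97. The change was 1.46 ± 0.10 (SE; adjusted p = 2.9e-06), in a range of 1.02 to 1.92 over the 8 pairs. The highest value of any cluster in the data was 13.7, and how far the top of the scale narrowed the Wy levels was not tested. Acaa1a and Acaa1b are near-identical thiolases that close the cycle, and RNA of each may reach the probes of the other. Acaa1b stood at 11.73, 11.98 and 12.07 in Wy mice, against 10.29, 10.81 and 11.17 in mock mice. Acaa1a stood at 10.04, 10.28 and 10.40 in Wy mice, against 8.58, 9.27 and 9.54 in mock mice. Neither gene's groups overlapped, with changes of 1.20 ± 0.08 and 1.03 ± 0.07 (adjusted p = 2.29e-06 and 2.67e-06).

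The rest of the straight-chain group moved less or in the other direction. Crot stood at 12.20, 12.46 and 12.59 in Wy mice, against 11.39, 11.96 and 12.46 in mock mice, so that the groups overlapped although all 8 pairs rose. Crot loads shortened acyl chains onto carnitine for export, and its change was 0.46 ± 0.07 (adjusted p = 0.000613). Decr2, a dienoyl-CoA reductase for unsaturated chains, was not called at 0.19 ± 0.07 (adjusted p = 0.0607), with 7 of 8 pairs higher. Pecr, an enoyl-CoA reductase, fell by 0.25 (SE 0.06, adjusted p = 0.0102), lower in 7 of 8 pairs.

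The promoters of the 5 risers with the largest change for which RefSeq (GRCm38.p6) gives one are shown because PPARα acts with RXR on direct repeats of a hexamer. Each runs from 250 bases before to 50 bases after the transcription start, 5′ to 3′ on the gene's strand, with the loosened half-site AGGNCA on either strand in capitals.
Ehhadh (chr16:21787785-21788084, minus strand): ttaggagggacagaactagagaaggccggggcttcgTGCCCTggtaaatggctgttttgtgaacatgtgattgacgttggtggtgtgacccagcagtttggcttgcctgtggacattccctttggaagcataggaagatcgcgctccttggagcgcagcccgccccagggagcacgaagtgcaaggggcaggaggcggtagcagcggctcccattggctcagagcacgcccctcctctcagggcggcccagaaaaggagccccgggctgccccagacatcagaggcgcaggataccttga
Acaa1b (chr9:119157044-119157343, minus strand): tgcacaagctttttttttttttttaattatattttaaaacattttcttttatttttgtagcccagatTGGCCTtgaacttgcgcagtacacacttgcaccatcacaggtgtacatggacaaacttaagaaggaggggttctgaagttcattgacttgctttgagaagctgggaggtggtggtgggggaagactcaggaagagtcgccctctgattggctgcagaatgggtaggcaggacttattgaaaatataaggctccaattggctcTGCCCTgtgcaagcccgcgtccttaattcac
Acaa1a (chr9:119341044-119341343, plus strand): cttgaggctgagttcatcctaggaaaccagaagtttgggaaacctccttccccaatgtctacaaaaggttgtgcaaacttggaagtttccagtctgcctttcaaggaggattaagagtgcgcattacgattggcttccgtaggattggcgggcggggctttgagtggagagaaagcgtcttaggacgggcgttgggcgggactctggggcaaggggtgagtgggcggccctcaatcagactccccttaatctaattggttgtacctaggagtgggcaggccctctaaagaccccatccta
Pex11a (chr7:79743082-79743381, minus strand): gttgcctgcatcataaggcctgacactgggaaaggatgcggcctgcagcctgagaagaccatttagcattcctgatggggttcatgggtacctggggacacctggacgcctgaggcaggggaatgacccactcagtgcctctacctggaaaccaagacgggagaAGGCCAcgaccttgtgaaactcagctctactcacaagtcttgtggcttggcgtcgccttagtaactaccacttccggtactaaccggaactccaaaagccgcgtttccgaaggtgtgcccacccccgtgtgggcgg
Pex14 (chr4:149099794-149100093, minus strand): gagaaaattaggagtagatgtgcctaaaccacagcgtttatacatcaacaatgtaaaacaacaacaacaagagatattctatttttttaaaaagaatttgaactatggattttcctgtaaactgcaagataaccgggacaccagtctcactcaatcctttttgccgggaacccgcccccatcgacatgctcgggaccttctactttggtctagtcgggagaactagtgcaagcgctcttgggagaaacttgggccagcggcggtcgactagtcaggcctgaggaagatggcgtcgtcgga
Acaa1a and Pex14 hold no half-site in these 300 bases, Ehhadh and Pex11a hold 1 and Acaa1b holds 2. RefSeq promoters matched 29 of the 36 members, with 35 promoters in all. The half-site AGGNCA occurred in 22 of these 35 (62.9%), against 57.2% of all 32851 promoters, and the strict half-site AGGTCA in 4 (11.4%), against 16.3%. A direct repeat of the half-site spaced by 1 base, on either strand, occurred in 0 of the 35 with AGGNCA and in 0 with AGGTCA, where 0.381% and 0.0396% of all promoters held one. With repeats this rare, most sets of 35 promoters would hold 0, so this count cannot set the members apart. Sequence beyond these 300 bases was not searched, so whether the genes have such a repeat elsewhere is not known from it.

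Among the enzymes for branched chains and bile acid side chains, the multifunctional Hsd17b4 rose. Hsd17b4 stood at 11.43, 11.60 and 11.72 in Wy mice, against 10.79, 11.03 and 11.30 in mock mice, and the groups did not overlap (change 0.53 ± 0.06, adjusted p = 5.22e-05). Amacr, the racemase that readies methyl-branched chains for oxidation, rose by 0.24 ± 0.05 (adjusted p = 0.00637), higher in 8 of 8 pairs. The branched-chain oxidase Acox3 fell by 0.16 (SE 0.05, adjusted p = 0.0265), a call that was lost when the arrays were centred (adjusted p = 0.0507). The oxidase Acox2 (0.04 ± 0.06) and the thiolase Scp2 (-0.00 ± 0.05) were not called. In alpha-oxidation, which removes 1 carbon from chains that beta-oxidation cannot start on, only the lyase Hacl1 was called. Hacl1 stood at 11.83, 12.20 and 12.36 in Wy mice, against 11.31, 11.69 and 11.99 in mock mice, with all 8 pairs higher (change 0.48 ± 0.07, adjusted p = 0.000306), while the hydroxylase Phyh stood at -0.10 ± 0.04 (adjusted p = 0.0764) and was lower in all 8 pairs.

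None of the 3 nudix hydrolases, which cleave coenzyme A or NADH, was called (Nudt7 -0.06, Nudt12 0.18 and Nudt19 -0.05). Of the peroxide and glyoxylate enzymes, the glycolate oxidase Hao1 fell and the others were not called. Hao1 stood at 9.45, 10.01 and 10.49 in Wy mice, against 9.71, 10.42 and 10.70 in mock mice, with 7 of 8 pairs lower and overlapping groups (change -0.33 ± 0.07, adjusted p = 0.00509). Catalase, Cat, ran from 12.95 to 13.07 in Wy mice and from 12.99 to 13.09 in mock mice, a difference of -0.03 ± 0.04. The highest value of any cluster was 13.7, and how far the top of the scale limited changes of Cat in any comparison was not tested. The aminotransferase Agxt differed by -0.20 ± 0.10 (adjusted p = 0.177).

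The transporters split. Abcd3, the abundant ABC half-transporter that brings branched-chain and dicarboxylic acyl-CoA into the peroxisome, rose in all 8 pairs. Abcd3 stood at 12.44, 12.55 and 12.63 in Wy mice, against 11.81, 12.02 and 12.28 in mock mice, with no overlap (change 0.51 ± 0.06, adjusted p = 0.000125). Abcd4, whose protein is known to work in lysosomes in the handling of cobalamin, fell in all 8 pairs. Abcd4 stood at 6.53, 6.89 and 7.05 in Wy mice, against 7.01, 7.22 and 7.43 in mock mice, so that the groups overlapped slightly (change -0.36 ± 0.07, adjusted p = 0.0021). Abcd2, a carrier of very-long-chain acyl-CoA, was not called (-0.06 ± 0.08).

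**Figure D2:**
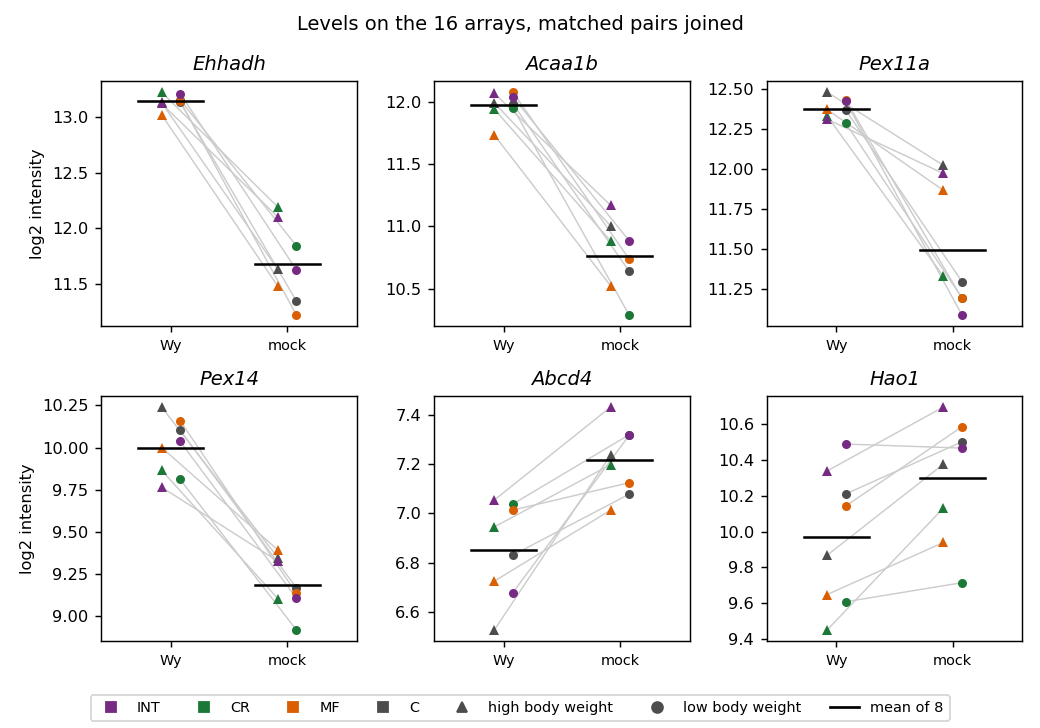
Log2 intensity (y axis) of 6 members on the 8 Wy and 8 mock arrays (x axis), with matched pairs joined by grey lines, colours for diets, shapes for body weight classes and black bars for means of 8. Ehhadh and Pex11a run over 0.20 and 0.19 in Wy mice, against 0.97 and 0.94 in mock mice, and Abcd4 falls in all 8 pairs.

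Of the Pex genes, those for docking and for membrane assembly rose together. Pex14 and Pex13 form the dock at which loaded import receptors meet the membrane. Pex14 stood at 9.76, 10.02 and 10.24 in Wy mice, against 8.92, 9.15 and 9.39 in mock mice. Pex13 stood at 9.26, 9.47 and 9.73 in Wy mice, against 8.65, 8.83 and 8.91 in mock mice. Neither pair of groups overlapped (changes 0.81 ± 0.07 and 0.64 ± 0.06, adjusted p = 8.81e-06 and 2.8e-05). Pex5, the receptor that carries most matrix enzymes, stood at 9.06, 9.21 and 9.39 in Wy mice, against 8.77, 8.85 and 9.00 in mock mice, again with no overlap (change 0.34 ± 0.05, adjusted p = 0.00042). The second receptor, Pex7, which serves a smaller set of enzymes including the thiolases, fell by 0.15 (SE 0.05, adjusted p = 0.0313), and so did Pex6, an ATPase of the complex that recycles Pex5, by 0.16 (SE 0.05, adjusted p = 0.0323). Each of these 2 falls was lost when the arrays were centred. The ubiquitin ligases Pex2 (-0.08) and Pex10 (0.08) and Pex26 (0.13), the membrane anchor of Pex6, were not called.

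All 3 membrane assembly genes rose. Pex19 is the soluble chaperone of peroxisomal membrane proteins, and Pex3 and Pex16 receive it at the membrane. Pex19 stood at 11.02, 11.34 and 11.43 in Wy mice, against 10.27, 10.76 and 10.95 in mock mice. Pex16 stood at 11.44, 11.82 and 11.89 in Wy mice, against 10.77, 11.26 and 11.43 in mock mice. Pex3 stood at 10.25, 10.47 and 10.60 in Wy mice, against 9.63, 9.90 and 10.08 in mock mice. No overlap was found in any of the 3, with changes of 0.57 ± 0.08, 0.53 ± 0.05 and 0.55 ± 0.05 (adjusted p = 0.000217, 2.26e-05 and 2.85e-05). Pex11a, which elongates the membrane before division, stood at 12.29, 12.37 and 12.48 in Wy mice, against 11.09, 11.31 and 12.02 in mock mice (change 0.88 ± 0.11, adjusted p = 0.000192). Its relative Pex11g did not follow (-0.03 ± 0.07, adjusted p = 0.809). Of the 15 risers, 12 (80%) had a smaller SD among the Wy mice than among the mock mice, against 10 of the other 21 members (47.6%) and 53.0% of all genes tested.

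The calls held up for most members: 18 of the 21 were kept under every alternative run, and the 3 small falls of Acox3, Pex7 and Pex6 were not. In a list of 43 other peroxisomal genes, 32 were tested, of which 16 rose and 3 fell with Wy (12.3% and 16% of all genes tested). The 6 with the smallest p were Hsdl2, a dehydrogenase-like protein (1.20 ± 0.07), the acyl-CoA thioesterases Acot4 (1.28 ± 0.10) and Acot3 (1.76 ± 0.14), the carnitine acetyltransferase Crat (1.16 ± 0.09), the malonyl-CoA decarboxylase Mlycd (0.64 ± 0.05) and the membrane protein Pxmp4 (0.61 ± 0.06), and all 6 were higher. Of the 5 hepatocyte markers Cps1 and Tat fell with Wy, and the summed level of the 5 ran from 15.25 to 15.49 in Wy mice and from 15.39 to 15.64 in mock mice. Plin1 rose among the 2 adipocyte markers tested, with Adipoq under the filter throughout, and the summed level of the 4 measured adipocyte markers ran from 6.47 to 6.69 in Wy mice and from 6.45 to 6.61 in mock mice. The part of these markers in the result was not tested.

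Whether the response depended on body weight or diet was tested as an interaction. By body weight class 0 of 36 members and 0% of all genes were called. The smallest p among members belonged to Pex11a, Acaa1b and Pex14. For Pex11a the pair differences were 0.34, 1.00, 0.50 and 0.46 at high body weight (INT, CR, MF and C), against 1.34, 1.09, 1.24 and 1.07 at low body weight. The mock levels of Pex11a were 11.97, 11.33, 11.87 and 12.02 at high body weight, against 11.09, 11.20, 11.19 and 11.30 at low body weight, whereas all Wy levels lay between 12.29 and 12.48. The response at high minus that at low body weight was -0.61 ± 0.14 (adjusted p = 0.999), that of Acaa1b -0.34 ± 0.12 and that of Pex14 -0.27 ± 0.11 (adjusted p = 0.999 and 0.999), and none is thereby shown to differ. By diet, 0 members and 0% of all genes were called, and Agxt, Pecr and Abcd2 had the smallest p among members (adjusted p = 0.997 for each). The Agxt pair differences were -0.44, -0.70, 0.41 and -0.34 at high body weight (INT, CR, MF and C), against -0.36, -0.13, 0.07 and -0.09 at low body weight.

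The second question was how the diets set these genes, over both treatments. In CR mice the members called were mostly lower. In CR against C, 3 members rose and 8 fell, where 10.5% of all genes were called, 4.54% higher and 5.98% lower (limma, with terms for treatment and for body weight class). The falls were Pex26 (-0.68), Pex11g (-0.60), Hao1 (-0.51), Acox3 (-0.48), Pex16 (-0.40), Scp2 (-0.39), Acaa1a (-0.37) and Pex3 (-0.29), and the rises Hao2 (1.83), Abcd2 (0.44) and Nudt19 (0.33), all as log2 changes. By class, 2 of 20 matrix enzymes rose and 4 fell, 1 of 3 transporters rose, and 4 of 13 Pex genes fell with none higher. The median change was -0.15 over the matrix enzymes, 0.21 over the transporters, -0.29 over the Pex genes and -0.01 over all genes. Ehhadh (0.29 ± 0.13) and Acaa1b (-0.14 ± 0.13), which led with Wy, were not called, and Cat stood at -0.03 ± 0.05.

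Between INT and CR the directions were the opposite. In INT against CR, 10 members rose and 3 fell, where 9.85% of all genes were called, 5.57% higher and 4.28% lower. Of the 8 members lower in CR than in C, 7 were called higher in INT than in CR, Pex3 being the exception (0.22 ± 0.07, adjusted p = 0.069), and the 3 that were higher in CR were lower in INT. Crot (0.56 ± 0.10), Amacr (0.36 ± 0.09) and Hsd17b4 (0.26 ± 0.08) were also called higher. The Hsd17b4 call was lost with the pair as a random block (adjusted p = 0.0604) and with the arrays centred (adjusted p = 0.0662). The median change was 0.27 over the matrix enzymes, -0.01 over the transporters, 0.18 over the Pex genes and 0.01 over all genes. In CR against MF, 3 members rose and 8 fell, where 12.7% of all genes were called, 5.79% higher and 6.87% lower, and these were the members called in CR against C except that Crot (-0.42) took the place of Hao1. The Acaa1a call in CR against MF was lost with the pair as a random block (adjusted p = 0.0579). All these comparisons share the 4 CR arrays, so they are not independent of each other. How many of all genes changed direction in the same way was not counted.

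**Figure D3:**
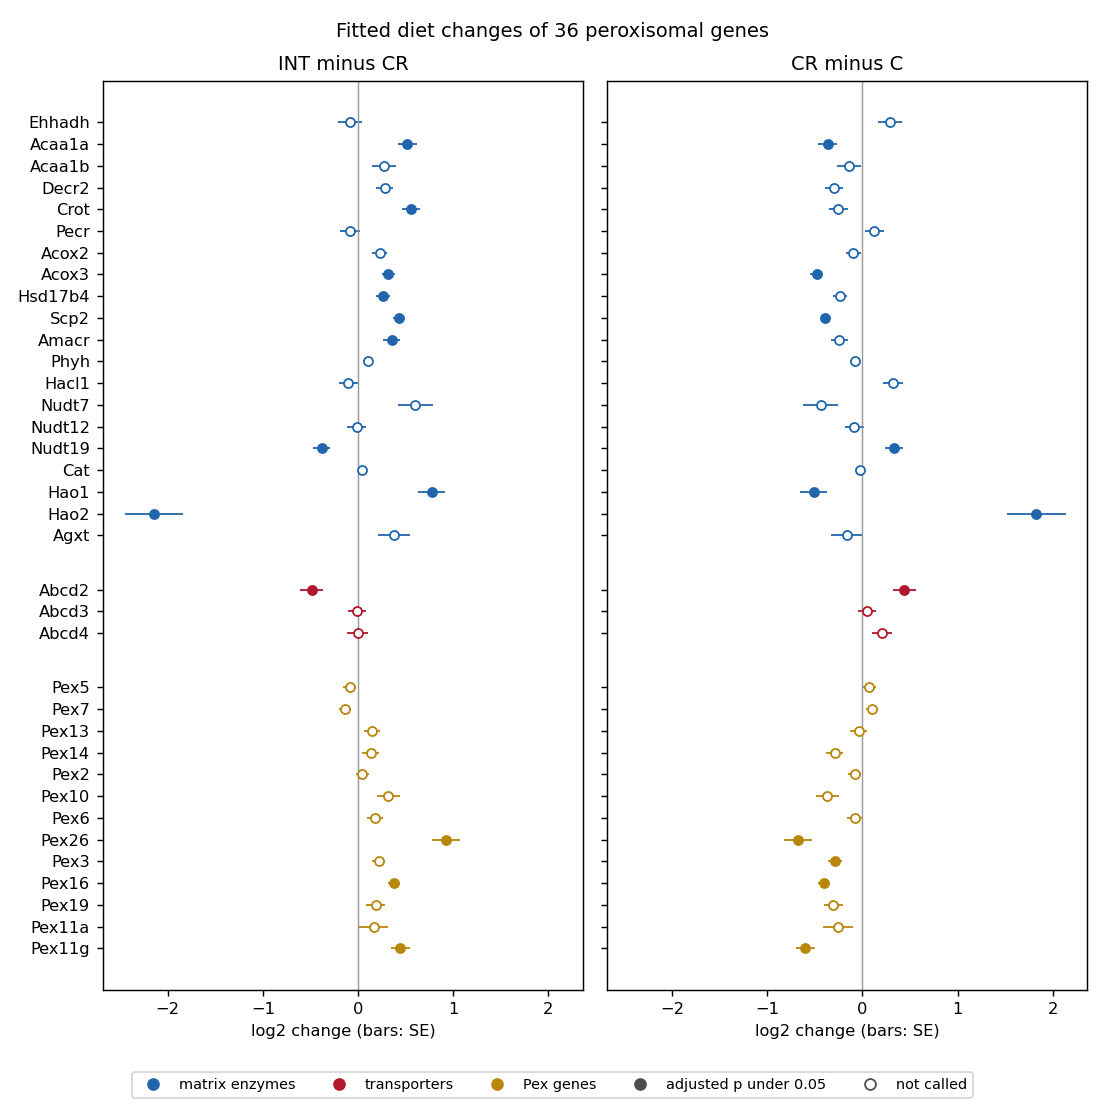
Fitted log2 change with its SE (x axis) of the 36 members (y axis) for INT minus CR (left) and CR minus C (right), coloured by class and filled where the adjusted p was under 0.05. Hao2, Nudt19 and Abcd2 lie below 0 on the left and above 0 on the right, and Pex26, Pex11g, Scp2, Acox3, Hao1, Acaa1a and Pex16 the other way round.

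Values are given in the order high body weight Wy, high mock, low Wy and low mock. Scp2 stood at 12.44, 12.44, 12.50 and 12.46 in INT mice, 11.88, 12.12, 12.10 and 12.03 in CR mice, 12.46, 12.42, 12.52 and 12.42 in MF mice and 12.45, 12.44, 12.38 and 12.41 in C mice. This thiolase for branched chains was thus lower on every CR array than on every other array, with changes of -0.39 ± 0.06 in CR against C (adjusted p = 0.0016), -0.43 ± 0.06 in CR against MF (adjusted p = 0.000803) and 0.43 ± 0.06 in INT against CR (adjusted p = 0.000801). Acox3 stood at 8.10, 8.42, 8.15 and 8.29 in INT mice, 7.95, 7.92, 7.84 and 7.97 in CR mice, 8.34, 8.43, 8.27 and 8.42 in MF mice and 8.38, 8.64, 8.20 and 8.39 in C mice. The 4 CR arrays were again the lowest of the 16, although Acox3 also fell slightly with Wy (CR against C -0.48 ± 0.07, adjusted p = 0.000758, and INT against CR 0.32 ± 0.07, adjusted p = 0.00869). Acox3 has 2 clusters, and with their mean in place of the brighter one the calls in INT against CR and in CR against MF were lost.

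Pex26 and Pex11g, neither of which was called with Wy, gave the largest falls among members in CR against C. Pex26 stood at 7.40, 6.83, 6.99 and 6.94 in INT mice, 5.97, 6.11, 6.31 and 6.06 in CR mice, 6.96, 6.82, 7.19 and 7.36 in MF mice and 6.48, 6.66, 7.25 and 6.77 in C mice. Every CR array was below every other array, with changes of -0.68 ± 0.15 in CR against C (adjusted p = 0.0099), -0.97 ± 0.15 in CR against MF (adjusted p = 0.00106) and 0.93 ± 0.15 in INT against CR (adjusted p = 0.00156). Pex11g stood at 8.06, 8.03, 7.76 and 8.00 in INT mice, 7.35, 7.75, 7.63 and 7.36 in CR mice, 7.92, 7.90, 8.09 and 8.10 in MF mice and 8.15, 8.05, 8.13 and 8.15 in C mice. Here too the 4 CR arrays were the lowest, at -0.60 ± 0.10 against C (adjusted p = 0.00221). Pex16 stood at 11.82, 11.41, 11.73 and 11.30 in INT mice, 11.48, 11.05, 11.44 and 10.77 in CR mice, 11.88, 11.28, 11.88 and 11.24 in MF mice and 11.81, 11.43, 11.89 and 11.23 in C mice. For Pex16, which was higher with Wy in every pair, the groups overlapped, but within each treatment and body weight class the CR array was the lowest of the 4 diets (CR against C -0.40 ± 0.07, adjusted p = 0.00214).

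The 3 members that were higher in CR were Hao2, Nudt19 and Abcd2. Hao2 is a peroxisomal oxidase of long-chain hydroxy acids and was a dim gene here, the only member with arrays under the filter. Hao2 stood at 4.42, 3.65, 3.79 and 3.61 in INT mice, 6.60, 5.50, 5.91 and 6.04 in CR mice, 5.46, 5.81, 4.22 and 3.76 in MF mice and 4.34, 4.87, 3.78 and 3.75 in C mice. The filter lies at 4.32, so 3 of 4 INT arrays, 2 of 4 MF arrays and 2 of 4 C arrays were under it, while all 4 CR arrays were above it. The fitted changes were 1.83 ± 0.31 in CR against C (adjusted p = 0.00237) and -2.15 ± 0.31 in INT against CR (adjusted p = 0.000871), and with values under the filter raised to it the groups' means differed by 1.55 and -1.67 (2.93-fold and 3.18-fold). Nudt19 stood at 9.44, 9.49, 9.40 and 9.30 in INT mice, 9.95, 9.70, 9.67 and 9.84 in CR mice, 9.25, 9.21, 9.22 and 9.55 in MF mice and 9.32, 9.44, 9.48 and 9.59 in C mice. Nudt19, a coenzyme A hydrolase, was above C, MF and INT on all 4 CR arrays (CR against C 0.33 ± 0.09, adjusted p = 0.0339). Abcd2 stood at 9.10, 9.10, 9.57 and 9.28 in INT mice, 9.82, 9.81, 9.56 and 9.80 in CR mice, 8.96, 9.16, 8.79 and 9.30 in MF mice and 9.43, 9.25, 9.27 and 9.28 in C mice. Abcd2 was higher on the 4 CR arrays than on any C or MF array, but the low INT Wy array exceeded the low CR Wy array (CR against C 0.44 ± 0.12, adjusted p = 0.0358).

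**Figure D4:**
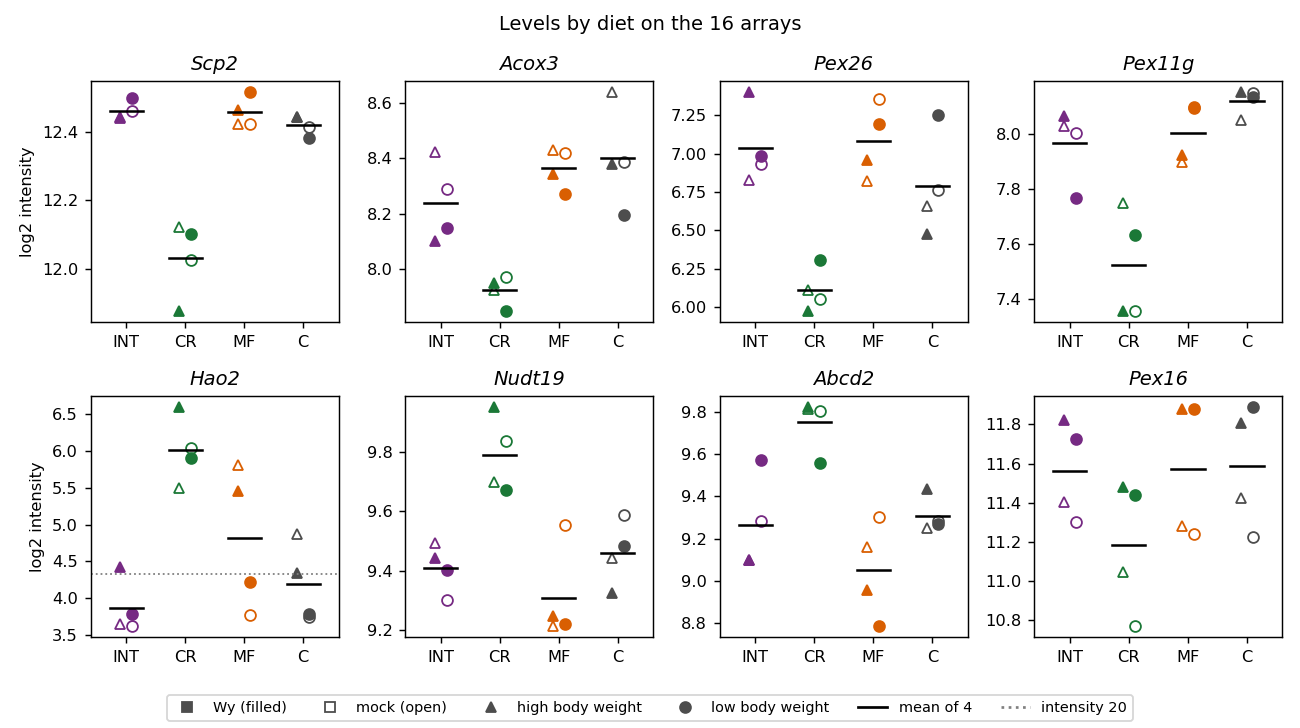
Log2 intensity (y axis) of 8 members on the 4 arrays of each diet (x axis, INT, CR, MF and C), filled for Wy and open for mock, with triangles for high and circles for low body weight, bars for the means of 4 and a dotted line at intensity 20 for Hao2. The CR arrays are the lowest for Scp2, Acox3, Pex26 and Pex11g and the highest for Nudt19.

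Crot and Hao1 completed the members with the smallest p in INT against CR. Crot stood at 12.52, 12.16, 12.59 and 12.46 in INT mice, 12.27, 11.39, 12.20 and 11.64 in CR mice, 12.53, 12.15, 12.52 and 11.99 in MF mice and 12.41, 11.93, 12.28 and 11.92 in C mice. Crot was raised by Wy as well, and within each treatment and body weight class its CR array was the lowest (INT against CR 0.56 ± 0.10, adjusted p = 0.00382). Hao1 stood at 10.34, 10.70, 10.49 and 10.47 in INT mice, 9.45, 10.13, 9.61 and 9.71 in CR mice, 9.65, 9.94, 10.14 and 10.59 in MF mice and 9.87, 10.38, 10.21 and 10.50 in C mice. Hao1 differed by 0.77 ± 0.14 in INT against CR (adjusted p = 0.00392) without overlap, and by -0.51 ± 0.14 in CR against C (adjusted p = 0.0313) with overlap. Of the 15 members that rose with Wy, 3 were lower in CR than in C (Acaa1a, Pex3 and Pex16), where 5.98% of all genes were lower. Of the 11 members called in CR against C, 6 were not called with Wy (Nudt19, Hao2, Abcd2, Scp2, Pex26 and Pex11g), where 28.3% of all genes were called with Wy. Such overlaps were not counted over all genes, so nothing particular to the members is read from them. The 9 members called neither with Wy nor in CR against C nor in INT against CR were Decr2, Acox2, Phyh, Nudt7, Nudt12, Cat, Agxt, Pex2 and Pex10. Among them the coenzyme A hydrolase Nudt7 stood at -0.44 ± 0.18 in CR against C and 0.60 ± 0.18 in INT against CR (adjusted p = 0.148 and 0.054), and Cat ran from 12.95 to 13.09 over all 16 arrays.

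With the mock arrays alone setting the diet difference, 1 of the 11 calls in CR against C was kept (Acox3), 1 of 11 in CR against MF (Acox3) and 5 of 13 in INT against CR (Hao2, Pex16, Crot, Acox3 and Acaa1a). The 10 changes in CR against C that were lost kept their direction in the mock mice, the falls at -0.63 to -0.28 and the rises at 0.26 to 1.46. CR against C called 6 members without the high C mock, the low C Wy or the low CR mock array. How the calls over all genes shrank in these settings is not given, so the losses are not read as particular to the members. Without the 2 arrays of the other code series (the second array-code series), 5 of the 13 INT against CR calls were kept (Scp2, Hao2, Pex26, Pex16 and Crot), and the change was 0.22 for Amacr and -0.29 for Abcd2. Single markers of other cell types moved with CR. Of the erythroid markers Alas2 was the brightest (median 9.53 over the 16 arrays, against 5.18 for Slc4a1 and 3.83 for Epb42). Their summed level therefore mostly follows Alas2. Slc4a1 was not called between these diets, and the median change of Alas2 and Slc4a1 in CR against C was -0.52. The summed level of the 3 measured erythroid markers ran from 8.42 to 8.62 in CR mice, against 9.60 to 10.07 in INT mice, 9.32 to 10.10 in MF mice and 9.55 to 9.95 in C mice, with Epb42 under the filter throughout and 1 of 2 tested, Alas2, called lower in CR than in C. That of the 5 measured lymphocyte markers ran from 7.18 to 7.61 in CR mice, against 7.46 to 8.19 in INT mice, 7.77 to 8.06 in MF mice and 7.53 to 8.40 in C mice, with 1 of 4 tested called in each comparison, Cd79b lower in CR than in C and Cd79a lower in CR than in MF and higher in INT than in CR. That of the 5 stellate cell markers ran from 12.23 to 12.43 in CR mice, against 12.22 to 12.40 in INT mice, 12.26 to 12.56 in MF mice and 12.24 to 12.52 in C mice, with Pdgfrb called lower in CR than in C and than in MF. Of the 5 endothelial markers Kdr and Lyve1 were called in CR against MF, 1 higher and 1 lower. The summed level of the 5 hepatocyte markers ran from 15.49 to 15.64 in CR mice, against 15.31 to 15.46 in INT mice, 15.33 to 15.46 in MF mice and 15.25 to 15.48 in C mice, with Tat called higher in CR than in C, and Cps1 and Tat called higher in CR than in MF and lower in INT than in CR. The part of these markers in the members' changes was not tested.

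The share of all called genes that were higher depended on scaling, and with arrays centred on their medians it was 57.1% in CR against C (43.2% without), 41.9% in INT against CR (56.5% without) and 56.2% in CR against MF (45.7% without). The members' split hardly moved, to 3 higher and 7 lower in both CR comparisons and 9 higher and 3 lower in INT against CR. Among the 32 other peroxisomal genes tested, 0 rose and 2 fell in CR against C (10.5% of all genes were called), the protease Tysnd1 (-0.66 ± 0.12) and the protease Lonp2 (-0.26 ± 0.08), both of which handle imported matrix proteins. The Lonp2 call was lost with the pair as a random block (adjusted p = 0.06) and without any 1 of 11 single arrays. In INT against CR, 5 rose and 2 fell (9.85% of all genes), those with the smallest p being Tmem135 (-0.39), Tysnd1 (0.66), the isomerase Eci2 (0.45), Lonp2 (0.36), the reductase Dhrs4 (0.26) and the epoxide hydrolase Ephx2 (0.42). Without the second array-code series the calls of Tysnd1, Eci2, Dhrs4 and Ephx2 were lost. In CR against MF (12.7% of all genes), 2 rose, the urate oxidase Uox (0.31) and Tmem135 (0.31), and 3 fell, Tysnd1 (-0.55), Dhrs4 (-0.20) and Eci2 (-0.27), of which Dhrs4 and Eci2 were lost with the pair as a random block (adjusted p = 0.0577 and 0.0687).

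Between INT, MF and C no member was called. INT against C called 0 of 36 members and 0.00701% of all genes. MF against C and INT against MF each called 0 members and 0% of all genes. The smallest p belonged to Crot in INT against C (0.30 ± 0.10, adjusted p = 0.375), Abcd2 in MF against C (-0.26 ± 0.12, adjusted p = 1) and Hao2 in INT against MF (-0.95 ± 0.31, adjusted p = 0.366). For Hao2, under the filter on 3 INT and 2 MF arrays, the means differed by -0.63 with values under the filter raised to it. These 3 differences were not separable from the spread between mice.

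The third comparison concerned body weight. The study describes wide body weights in C and MF and narrow ones in CR and INT, so the classes were compared within each pair of diets. At high against low body weight in C and MF, 1 member rose and 3 fell, where 7.39% of all genes were called, 4.67% higher and 2.72% lower. Values follow in the order MF Wy, MF mock, C Wy and C mock. Agxt, which converts glyoxylate to glycine, stood at 9.76, 9.35, 9.13 and 9.47 at high body weight, against 10.10, 10.03, 9.94 and 10.03 at low body weight. The classes did not overlap, with a difference of -0.59 ± 0.14 (adjusted p = 0.033). Hao1, which forms glyoxylate from glycolate, stood at 9.65, 9.94, 9.87 and 10.38 at high body weight, against 10.14, 10.59, 10.21 and 10.50 at low body weight. The difference was -0.40 ± 0.10 (adjusted p = 0.0381), with overlap between the classes.

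Pex6 stood at 8.20, 8.42, 8.54 and 8.60 at high body weight, against 8.55, 8.85, 8.67 and 8.73 at low body weight, again overlapping (-0.26 ± 0.07, adjusted p = 0.047). Hao2 stood at 5.46, 5.81, 4.34 and 4.87 at high body weight, against 4.22, 3.76, 3.78 and 3.75 at low body weight. All 4 arrays of low body weight were under the filter of 4.32, so Hao2 was at least 1.74-fold higher at high body weight, computed against the filter level, with measured means of 5.12 and 3.88 (fitted difference 1.25 ± 0.23, adjusted p = 0.0119). The 2 MF arrays were the higher pair among the mice of high body weight. By class, 1 of 20 matrix enzymes rose and 2 fell, 0 of 3 transporters and 1 of 13 Pex genes were called, and the median change was -0.02 over the matrix enzymes, -0.02 over the transporters and under 0.01 in size over the Pex genes and over all genes. Of the 32 other peroxisomal genes, Pxmp2, a channel protein of the membrane, fell (-0.43 ± 0.11) and Mpv17 rose (0.24 ± 0.07), and each of these calls was lost without any 1 of the 8 C and MF arrays.

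None of the 4 calls was kept throughout when single arrays of C or MF were left out. Without the high C mock, high MF mock, low C Wy or low MF mock array 0 of the 4 were kept, without the high C Wy or low C mock array 1 was, and without the high or low MF Wy array 2 were. The summed level of the 7 Kupffer cell and macrophage markers ran from 11.73 to 12.31 at high body weight, against 11.65 to 11.83 at low body weight, with Cd68 called higher and Timd4 called lower. That of the 5 endothelial markers ran from 12.17 to 12.36 at high body weight, against 12.07 to 12.16 at low body weight, with Lyve1 and Pecam1 called higher. That of the 5 hepatocyte markers ran from 15.25 to 15.42 at high body weight, against 15.36 to 15.48 at low body weight, with Cps1 called lower. That of the 5 stellate cell markers ran from 12.41 to 12.56 at high body weight, against 12.24 to 12.40 at low body weight. For the 3 measured erythroid markers the sum, mostly Alas2, ran from 9.32 to 9.64, against 9.82 to 10.10, with Alas2 called lower. Their part in the members' differences was not tested.

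**Figure D5:**
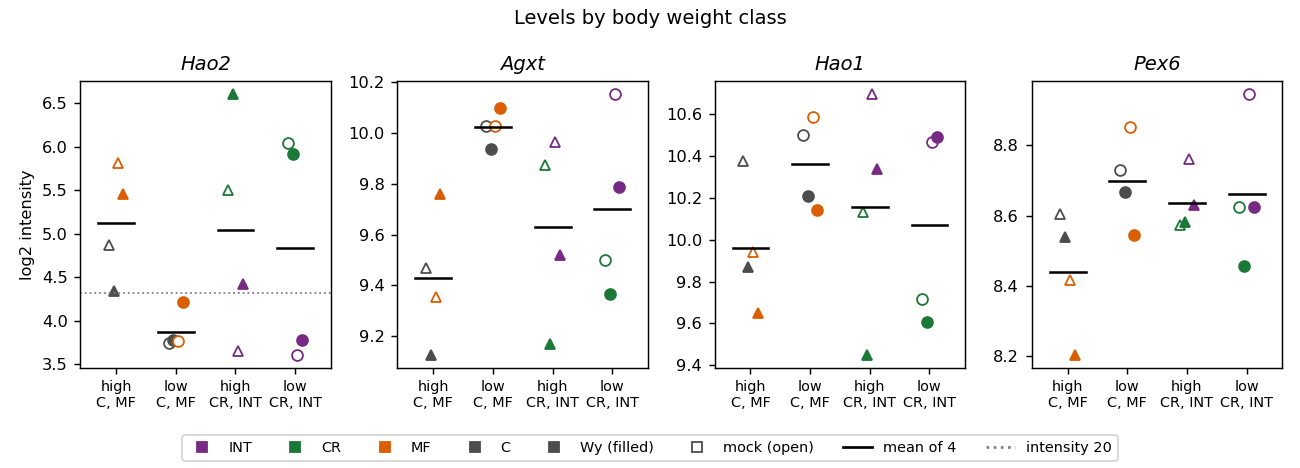
Log2 intensity (y axis) of 4 members at high and low body weight, in C and MF and in CR and INT (x axis), 4 arrays each, coloured by diet, filled for Wy and open for mock, with bars for means and a dotted line at intensity 20 for Hao2. In C and MF the classes do not overlap for Hao2 and Agxt.

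In CR and INT no member was called by body weight class (0 of 36, and 0% of all genes). Acaa1b had the smallest p, at 12.07, 11.17, 11.94 and 10.88 at high body weight (INT Wy, INT mock, CR Wy and CR mock), against 12.04, 10.88, 11.95 and 10.29 at low body weight (0.22 ± 0.11, adjusted p = 0.968). The difference of the body weight effects, C and MF minus CR and INT, called 0 members and 0.855% of all genes. The smallest p was that of Hao1 (-0.49 ± 0.14, adjusted p = 0.143), for which high and low body weight averaged 10.15 ± 0.52 and 10.07 ± 0.47 in CR and INT (SD, n = 4 each). Each of these groups of 4 holds both diets and both treatments, so the SD includes their differences. The body weight effects on the members were therefore not shown to differ between the pairs of diets.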

How the data were processed

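Whole liver RNA of 16 mice was hybridised to Affymetrix Mouse Gene 1.1 ST arrays, 1 array per mouse. The deposited values are log2 intensities per transcript cluster, which the authors made by RMA (background correction, quantile normalisation and summarisation over all arrays together); the software and its version are not given in the sources used here. Of 35556 clusters, 21218 carried 1 gene in the platform annotation, 1881 several and 12457 none, and those with 1 gene gave 18820 genes, of which 14275 were tested. Acox3, Nudt12 and Nudt19 have 2 clusters. The other list held 43 peroxisomal genes, of which 33 were measured and 32 tested (Dao was under the filter), and the others were not analysed here. The members and lists were chosen with earlier results of these data known.

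Groups were taken from the sample labels. limma 3.58.1 in R 4.3.3 (lmFit, eBayes) was used with Benjamini-Hochberg adjustment over all genes tested, and calls were made at adjusted p under 0.05. For Wy against mock the 8 matched pairs formed a block, the pairing coming from the labels, which match mice by body weight. Deviations of paired mice from their group means correlated at 0.531 in C, 0.564 in MF, 0.0839 in INT and -0.17 in CR. The model for diets had terms for treatment and for body weight class, and that for body weight crossed diet with body weight class beside a term for treatment. Interactions of Wy with diet or body weight class were fitted with the pair as a block. Values on the arrays are given for the 16 called members with the smallest p with Wy, for up to 6 called members per diet or body weight comparison and for the member with the smallest p where none was called, and of the other peroxisomal genes up to 6 called ones per comparison are named. Array number limits the precision. On simulated data of 14275 genes the Wy fit recovered 88% of genes changed by 0.5 and 100% of those changed by 1 (log2), and the CR against C fit 72% and 98%, with 10 false calls each. Both simulations used the spread left within pairs by the Wy model, with genes drawn independently. The CR against C simulation held no variation between pairs, which that fit meets in the data, so its figures may be too favourable. The alternatives were centring of arrays, other filters on dim genes, a variance trend with robust fitting, the mean over clusters, the array code as a term or its second series left out, mock arrays alone, the pair block removed or as a random effect, and single arrays left out. Raising values under the filter to it was added after seeing the data.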

Additional observations from a re-analysis of the deposited data

Results flagged for a closer look

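Of 135 groups of 4 or 8 arrays or pairs examined for 1 value standing apart from the others (Dixon's criterion, which by chance picks out about 1 in 20 groups), 10 had one. Among levels, Acaa1b stood at 11.73 on the high MF Wy array, against 11.94 to 12.07 on the other 7 Wy arrays, and Pex6 at 8.20 on the same array, against 8.46 to 8.67. Nudt19 stood at 9.55 on the low MF mock array, against 9.21 to 9.25 on the other MF arrays. Hao2 stood at 4.22 on the low MF Wy array, against 3.75 to 3.78 on the other arrays of low body weight in C and MF, all under the filter. Abcd2 stood at 9.56 on the low CR Wy array, against 9.80 to 9.82 on the other CR arrays, and at 9.43 on the high C Wy array, against 9.25 to 9.28 on the other C arrays.

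Among the Wy minus mock differences of the 8 pairs, that of Scp2 was -0.25 in the CR pair of high body weight, against -0.03 to 0.09 in the other pairs. That of Pex2 was -0.27 in the MF pair of high body weight, against -0.11 to 0.04. In the INT pair of high body weight, whose 2 arrays carry the other array code, the difference was 0.0627 for Pex5, against 0.32 to 0.46 in the other pairs, and 0.23 for Pex3, against 0.53 to 0.72.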

How the results depend on the processing

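With Wy, 18 of the 21 calls were kept under every alternative, Acox3, Pex7 and Pex6 being the exceptions, and 19 to 21 members were called without single mice (each left out together with its pair). Centring the arrays gave 3 members lower, against 6. Without the replicate block 16 members were higher and 5 lower, and 20 of the 21 calls were kept. In CR against C 11 members were called, against 1 with the mock arrays alone and 6 to 14 without single arrays. In INT against CR 13 were called, against 5 without the second array-code series, 6 with the array code as a term, 8 with the mock arrays alone and 9 to 14 without single arrays. In CR against MF 11 were called, against 1 with the mock arrays alone and 8 to 14 without single arrays. With the pair as a random replicate block 11, 12 and 10 members were called in these 3 comparisons, Hsd17b4 in INT against CR and Acaa1a in CR against MF being lost. By body weight class in C and MF 4 were called, against 0 to 4 without single arrays, and in the difference of the body weight effects 0, against 0 to 1 without single arrays (1 without the high CR Wy array). The shares of all genes called under these alternatives are not given beside the counts, so nothing particular to the members is read from the losses. The mock arrays alone hold fewer samples. Leaving out the second array-code series also removes 2 of the 4 INT arrays. The array code as a term gave the same INT against CR changes (0.217 for Amacr and -0.286 for Abcd2 in both settings). These 2 alternatives are therefore not separate checks. The cause of the other shifts was not tested. Acox3 in CR against C and Hao2, Pex16 and Crot in INT against CR were kept under every alternative run for them (Hao2 was too dim to be tested at an intensity filter of 50), and in CR against MF and by body weight class no call was. Of the other peroxisomal genes, Lonp2 in CR against C was lost in 15 of 26 settings, Dhrs4 and Eci2 in CR against MF in 16 and 21 of 26, and Pxmp2 and Mpv17 by body weight class in 8 and 15 of 23. Of all counts of members under the alternatives, 294 were within 1.5 times the count reported and 16 were not. A count of 0 in both fits was taken as within, so the 294 include comparisons without any call. Of the values of single genes 2113 kept direction and side of the threshold, 282 kept only the direction and 0 reversed. Without the second array-code series, the body weight effect in CR and INT and the difference of the body weight effects could not be given, and that difference could not be fitted with a random block because its model already holds the pair. The number of arrays, and for Hao2 a signal near the filter, limit these comparisons.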
